A study of Mus musculus with 9 samples.

Results

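The EGF receptor family and its ligands were followed in epithelial cells of the mouse prostate, in 1 line with an intact retinoblastoma gene (wild-type) and 1 line that lacks it (labelled Rb-/-, called Rb-null here). The 8 genes chosen were the receptors Egfr, Erbb2 and Erbb3 and the ligands Areg, Ereg, Hbegf, Btc and Tgfa, and a probe set was a member when the platform annotation gave it 1 of these symbols. By that rule 10 probe sets belonged to 6 of the genes, Egfr (3 probe sets), Erbb3 (2), Ereg (2), Hbegf, Tgfa and Btc, out of 12422 probe sets on the array. Areg and Erbb2 matched no probe set and were not analysed here. Each line was kept in RPMI-1640 medium either supplemented with 5% fetal bovine serum or, for 48 hours, lacking it. Total RNA was measured on 9 single-channel arrays: 3 of wild-type cells in serum and 2 each of wild-type cells without serum, Rb-null cells in serum and Rb-null cells without serum. Each genotype is thus a single line, and a difference between genotypes cannot be told apart from any other difference between the lines. Whether replicate arrays came from separate cultures is not said in the labels, so p-values measure only the spread between arrays, which may be technical.

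Receptors of this family are membrane tyrosine kinases that signal in pairs. Egfr binds Tgfa, amphiregulin (Areg), epiregulin (Ereg), betacellulin (Btc) and heparin-binding EGF-like growth factor (Hbegf), while Erbb3 has a weak kinase, binds neuregulins and signals through its partners. The ligands are made as membrane-anchored precursors that ADAM proteases release, and in epithelial cultures they are known to act on the cells that make them.

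Values are intensities after quantile normalization between arrays, on a linear scale unless log2 is named. The arrays had median deposited intensities from 445 to 474 and upper quartiles from 991 to 1153. Values below 197, the percentile 25 of all values, were raised to that floor for the tests, and 9686 probe sets above it on at least 2 arrays were tested with limma in 1 fit of the 4 group means. The differences are Rb-null minus wild-type or serum-free minus serum, and an adjusted p under 0.05 over all tested probe sets counted as past the threshold. The array wild-type serum 1 stood apart, with rank correlations of 0.986 and 0.984 to the other wild-type serum arrays against 0.997 between those, so calls and list counts that change without it are also given without it. Rb1, the targeted gene, read from 368 to 714 on the wild-type arrays and from 110 to 171, under the floor, on the Rb-null arrays. Its highest value was on wild-type serum 1. Of the epithelial markers with a probe set, 7 of 8 basal, 7 of 7 luminal and 5 of 5 general epithelial genes lay above the floor on all arrays, while the mesenchymal marker Vim and the leukocyte marker Ptprc did not pass the filter. Above the floor on all arrays, however, lay 6 of 7 mesenchymal genes, 2 of 4 leukocyte genes (Itgam and Cd68) and 2 of 4 endothelial genes (Pecam1 and Kdr). Smooth muscle markers (3 of 6 above the floor on all arrays; Acta2, Myh11 and Cnn1 did not pass the filter) had summed intensities from 8076 to 9526 on the wild-type arrays and from 5222 to 5678 on the Rb-null arrays. Neuroendocrine markers (2 of 3 above the floor on all arrays) summed to 2276 to 2816 and 1794 to 1998 in the same order. Endothelial markers summed to 1358 to 1689 and 1186 to 1340, and leukocyte markers to 1098 to 1425 and 1170 to 1216, which overlap. Basal markers summed to 6496 to 6806 and 7422 to 7890 in serum, in the same order. Without serum they summed to 7865 to 7877 and 8943 to 8982. Luminal markers summed to 32440 to 36290 and 36840 to 36980 in serum and overlapped without it. General epithelial markers overlapped in serum and were higher in Rb-null cells without it (10130 to 10720 and 11410 to 12240). Mesenchymal markers overlapped in serum and were lower in Rb-null cells without it (10250 to 10440 and 9358 to 10070). The part of these differences in the genotype results was not tested, and in bulk RNA fewer cells of a type and less RNA per cell cannot be told apart.

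Since Egfr and Tgfa, a receptor and its ligand, went opposite ways between the lines, the start-site regions of these genes are shown for context, from 250 bases before to 50 after the gene start (RefSeq, mouse build GRCm38.p6, plus strand). Capitals mark the GC box, the letters GGGCGG or, on the other strand, CCGCCC, a motif bound by SP1-type factors.
Egfr, chr11:16751953-16752252: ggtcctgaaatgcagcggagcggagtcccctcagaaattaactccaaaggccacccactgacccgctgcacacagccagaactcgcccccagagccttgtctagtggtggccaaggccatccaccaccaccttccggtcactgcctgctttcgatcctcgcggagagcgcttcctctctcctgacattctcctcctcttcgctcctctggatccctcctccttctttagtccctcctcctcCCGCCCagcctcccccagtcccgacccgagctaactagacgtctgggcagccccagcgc
Tgfa, chr6:86194972-86195271: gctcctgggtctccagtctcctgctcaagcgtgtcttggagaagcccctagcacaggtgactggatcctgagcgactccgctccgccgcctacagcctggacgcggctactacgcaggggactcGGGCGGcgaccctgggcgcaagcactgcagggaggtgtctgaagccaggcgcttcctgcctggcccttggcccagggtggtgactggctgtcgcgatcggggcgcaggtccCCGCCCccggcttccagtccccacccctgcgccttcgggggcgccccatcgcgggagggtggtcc
G and C made up 62.3% of the Egfr window and 70.7% of the Tgfa window. The GC box stood once in the Egfr window and at 2 places in the Tgfa window, and 35.7% of all 32851 windows of this length hold it. Neither window held the letters of an E2F site (TTTCCCGC, TTTCGCGC, TTTGCCGC or TTTGGCGC on either strand, in 2.26% of all windows) or of a TATA box (TATAAA on either strand, in 13.6%). These are matches of letters, not measured sites. Of the 8 genes, 5 were in the table, and Erbb3, Ereg and Hbegf were not.

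**Figure D1:**
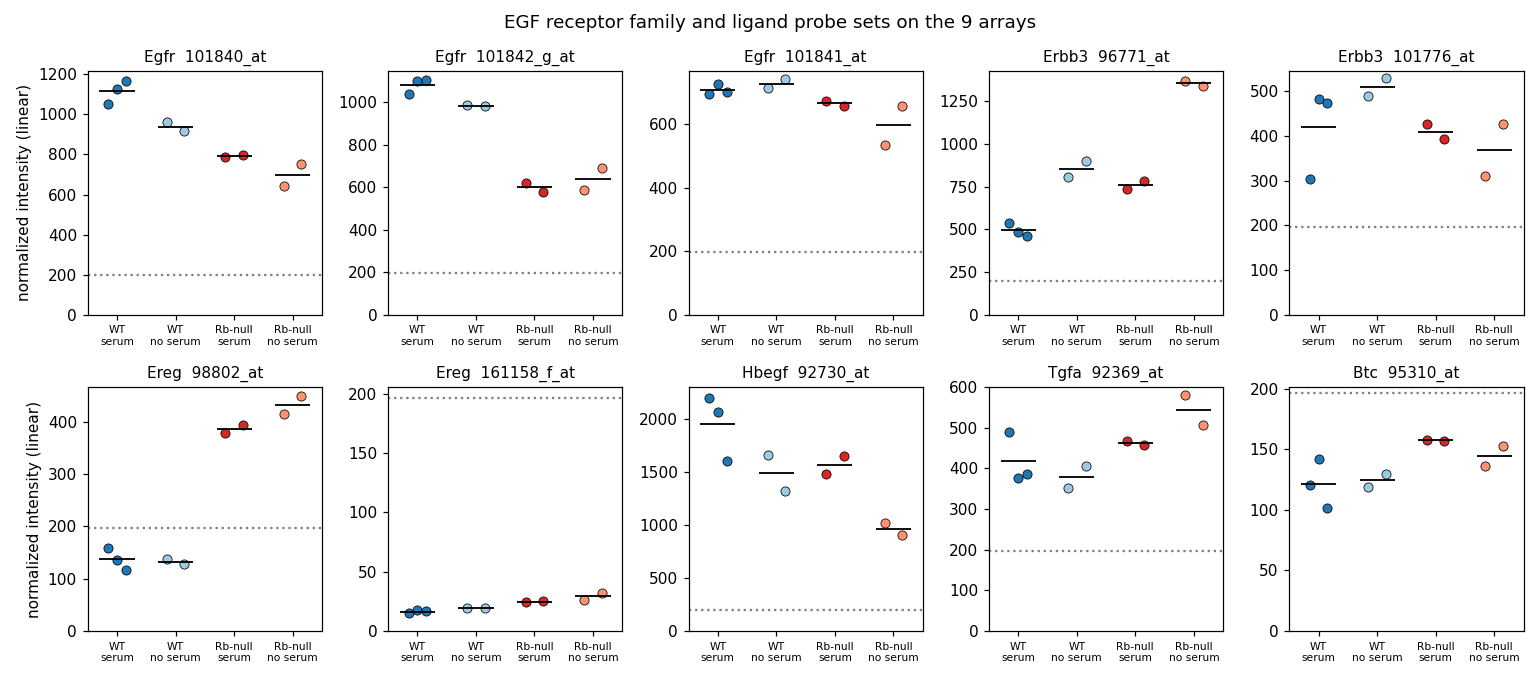
Normalized intensity (linear axis from 0) of the 10 member probe sets on each array, with 1 point an array, a bar at the group mean and a dotted line at the floor of 197. Ereg 98802_at is below the floor on all wild-type arrays and above it on all Rb-null arrays, the Erbb3 probe sets differ in pattern, and Btc and the other Ereg probe set stay below the floor everywhere.

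Averaged over the media, Egfr and Hbegf were lower and Ereg, Tgfa and Erbb3 on 1 of its probe sets were higher in the Rb-null line. Of the 8 tested probe sets, 3 were higher, 3 lower and 2 did not pass, where 45.2% of all tested probe sets passed, 21.8% higher and 23.4% lower. Arrays of the lines did not overlap for 4 of 8, against 23.1% of all probe sets. In serum 2 were higher and 2 lower (13.2% and 10.4% of all), and 5 of 8 did not overlap (49.5% of all). Without serum 3 were higher and 3 lower (16.8% and 13.9% of all), and all 8 did not overlap (74.3% of all). The median averaged log2 difference of the members was -0.22 against -0.05 for all tested probe sets. These counts describe the members and support nothing, since 3 probe sets read Egfr and Ereg passed the filter through the Rb-null arrays only. Without wild-type serum 1 all 8 passed, 3 higher and 5 lower. Over all probe sets 6072 passed there, 2604 higher and 3468 lower, against 4378 with all arrays.

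Egfr was lower in the Rb-null line on each of its probe sets, though not to the same extent. Probe set 101842_g_at gave 1042, 1103 and 1104 for wild-type cells in serum, and 986 and 982 after withdrawal. For Rb-null cells it gave 623 and 579 in serum, and 588 and 692 after withdrawal. No array of one line overlapped the other line. The averaged difference was 1.67-fold (log2 -0.74, SE 0.07, adjusted p = 4.61e-05), and 4.9% of all tested probe sets differed by at least this much in either direction. In serum it was -0.85 (SE 0.09, adjusted p = 0.000238). After withdrawal it was -0.63 (SE 0.10, adjusted p = 0.00219). This stands beside 23.6% and 30.7% of all probe sets past the threshold in these comparisons.

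The probe set 101840_at read 1050, 1127 and 1169 in wild-type serum cultures and 960 and 919 in wild-type serum-free cultures. The Rb-null values were 787 and 795 in serum, then 642 and 750 after withdrawal. The groups thus ranked wild-type serum, wild-type serum-free, Rb-null serum and Rb-null serum-free, and neighbouring groups did not overlap. The averaged difference was 1.38-fold (log2 -0.47, SE 0.07, adjusted p = 0.000696). Per medium it was -0.49 in serum (SE 0.09, adjusted p = 0.00484) and -0.44 after withdrawal (SE 0.10, adjusted p = 0.0123). Leaving out 1 array ended the latter call for wild-type serum-free 1 (adjusted p = 0.0877), wild-type serum-free 2 (0.0523) or Rb-null serum-free 1 (0.0863).

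The remaining Egfr probe set, 101841_at, is annotated to the same transcript record as 101842_g_at, and it moved little. It read 697, 726 and 702 in wild-type serum, 713 and 742 in wild-type serum-free, 674 and 657 in Rb-null serum and 535 and 658 in Rb-null serum-free cultures. The lines did not overlap, but the steps between them were small. Its averaged difference of -0.19 (SE 0.07, 95% interval -0.36 to -0.03) missed the threshold (adjusted p = 0.0577) and passed without wild-type serum 1 (-0.20, adjusted p = 0.0313) or without Rb-null serum-free 2 (-0.26, adjusted p = 0.0150). In serum-free medium it stood at -0.29 (adjusted p = 0.0660) and passed without wild-type serum 1 (adjusted p = 0.0312). The averaged difference also passed with no floor (adjusted p = 0.0493) and with no intensity trend in the variance (0.0437). The probe sets therefore put the Egfr difference between the lines anywhere from -0.19 to -0.74. The position of each in the transcript was not analysed here.

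The probe sets of Erbb3 differed in pattern. Probe set 96771_at read 537, 486 and 464 in wild-type serum cultures and 804 and 900 in wild-type serum-free cultures. The Rb-null values were 737 and 786 in serum, then 1370 and 1342 after withdrawal. Within each medium the Rb-null arrays were higher with no overlap, but across the media the lines overlapped, since the wild-type serum-free arrays lay above the Rb-null serum arrays. The averaged genotype difference was 1.57-fold (log2 0.65, SE 0.07, adjusted p = 0.000119), at 0.62 in serum (SE 0.09, adjusted p = 0.00168) and 0.67 after withdrawal (SE 0.10, adjusted p = 0.00171). These calls held under every alternative run.

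On the other Erbb3 probe set, 101776_at, the values were 303, 481 and 474 in wild-type serum and 489 and 529 in wild-type serum-free cultures. For Rb-null cells they were 426 and 393 in serum, then 310 and 426 after withdrawal. Wild-type serum 1 was the lowest of all 9 arrays, and Rb-null serum-free 1 was next. The averaged difference was -0.24 (SE 0.15, adjusted p = 0.211), with a 95% interval from -0.58 to 0.10 that does not reach the interval of 96771_at, from 0.49 to 0.80. Without wild-type serum 1 this probe set was called lower in Rb-null cells (-0.35, adjusted p = 0.00857), opposite to 96771_at. In serum-free medium it stood at -0.49 (adjusted p = 0.121), or at -0.48 without that array (adjusted p = 0.0130). The direction of the Erbb3 difference between the lines thus depended on the probe set.

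**Figure D2:**
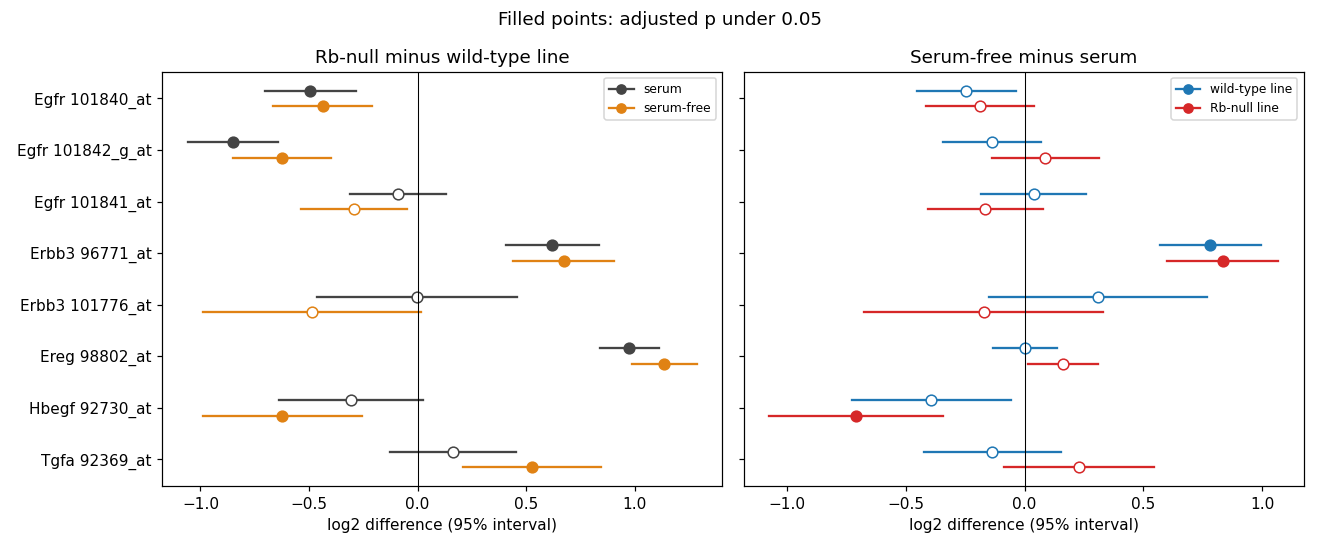
Log2 differences with 95% intervals for the 8 tested probe sets, Rb-null minus wild-type on the left (grey in serum, orange serum-free) and serum-free minus serum on the right (blue wild-type, red Rb-null); filled points have an adjusted p under 0.05. Erbb3 96771_at lies right of 0 in all 4 comparisons, Ereg lies right of 0 between the lines (a lower bound set by the floor), and Egfr 101840_at and 101842_g_at lie left.

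Epiregulin (Ereg), a ligand of Egfr and Erbb4, differed most between the lines among the members. Probe set 98802_at read 159, 135 and 117 in wild-type serum and 137 and 129 in wild-type serum-free cultures, all under the floor. The Rb-null values were 379 and 395 in serum, then 416 and 450 after withdrawal. The lowest Rb-null array thus lay above the highest wild-type array. Ereg was at least 2.08-fold higher averaged over the media (adjusted p = 2.75e-07), at least 1.97-fold in serum (adjusted p = 7.52e-06) and at least 2.20-fold without serum (adjusted p = 4.76e-06). The floor sets these bounds: the averaged log2 difference of 1.06 became 1.61 with the floor at percentile 10, 0.29 with it at percentile 40 and 1.32 with no floor on log2(value + 50). The call held in each case. Values raised to the floor have no spread, so the fitted SE of 0.04 holds no spread of wild-type arrays. The other Ereg probe set, 161158_f_at, whose suffix marks probes that can bind related transcripts, reached at most 32.2 and was not tested.

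Transforming growth factor alpha (Tgfa) was higher in the Rb-null line by a smaller step. Its probe set read 490, 376 and 386 in wild-type serum and 351 and 405 in wild-type serum-free cultures. The Rb-null values were 468 and 459 in serum, then 581 and 508 after withdrawal. Wild-type serum 1 lay above both Rb-null serum arrays, and every other wild-type array lay below every Rb-null array. The averaged difference was 1.27-fold (log2 0.35, SE 0.10, adjusted p = 0.0166). Without serum it was 0.53 (SE 0.14, adjusted p = 0.0217) and in serum 0.16 (SE 0.13, adjusted p = 0.406). Without wild-type serum 1 the serum difference was 0.28 and passed (adjusted p = 0.0335). The averaged call was lost without wild-type serum-free 1 (adjusted p = 0.0764), Rb-null serum 1 (0.0580) or Rb-null serum-free 1 (0.0682) and with no filter on low values (0.0558). The serum-free call was lost without wild-type serum-free 1 (0.146), wild-type serum-free 2 (0.0512) or Rb-null serum-free 1 (0.136) and with no filter (0.0693).

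Hbegf went the other way. It read 2206, 2067 and 1611 in wild-type serum cultures and 1661 and 1320 in wild-type serum-free cultures. The Rb-null values were 1489 and 1659 in serum, then 1022 and 904 after withdrawal. The lines overlapped in serum and did not overlap without it. The averaged difference was 1.38-fold, lower in the Rb-null line (log2 -0.46, SE 0.11, adjusted p = 0.00819), at -0.62 without serum (SE 0.16, adjusted p = 0.0197) and -0.31 in serum (SE 0.15, adjusted p = 0.172). The averaged call was lost in the values as deposited (-0.29, adjusted p = 0.0865) and after scaling arrays to a common median (-0.33, adjusted p = 0.0557), so it rested on the normalization. The serum-free call was also lost under these (adjusted p = 0.105 and 0.0746), with no filter (0.0711), and without wild-type serum-free 1 (0.146), Rb-null serum-free 1 (0.0612) or Rb-null serum-free 2 (0.101). Without wild-type serum 3, the lowest of its group, the difference in serum was -0.44 and passed (adjusted p = 0.0429).

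Betacellulin (Btc) stayed under the floor on every array and was not tested. Its values were 120, 142 and 102 in wild-type serum, 119 and 130 in wild-type serum-free, 158 and 157 in Rb-null serum and 136 and 153 in Rb-null serum-free cultures. The groups of each medium did not overlap, at levels that the floor treats as undetected. With the floor at percentile 10 it entered the test and its averaged difference was 0.30 (SE 0.09, adjusted p = 0.0288).

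Serum withdrawal for 48 hours moved 1 member probe set in wild-type cells and 2 in Rb-null cells, of 8 tested, beside 15.9% and 13.9% of all tested probe sets. In wild-type cells 1 was higher and 0 lower (6.61% and 9.26% of all), and 4 of 8 did not overlap (44.2% of all). In Rb-null cells 1 was higher and 1 lower (7.5% and 6.42% of all), and 5 of 8 did not overlap (56% of all). Erbb3 96771_at rose in each line, by 0.78 in wild-type cells (SE 0.09, adjusted p = 0.000562) and by 0.83 in Rb-null cells (SE 0.10, adjusted p = 0.000822). That is 1.72-fold and 1.78-fold, a size that 2.9% and 2.3% of all tested probe sets reached or passed in these comparisons. The interaction, the Rb-null response minus the wild-type response, was 0.05 (95% interval -0.26 to 0.37, adjusted p = 0.897). The probe set 101776_at did not pass, at 0.31 (adjusted p = 0.365) in wild-type and -0.17 (adjusted p = 0.759) in Rb-null cells.

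Hbegf fell on withdrawal in Rb-null cells by 0.71 (SE 0.16, adjusted p = 0.0179), or 1.64-fold, and the 2 groups did not overlap. That call was lost without any single Rb-null array (adjusted p from 0.0581 to 0.146) and with no filter on low values (0.0801). In wild-type cells the value was -0.39 (SE 0.15, adjusted p = 0.115), where wild-type serum 3 overlapped the serum-free arrays, and without that array it was -0.53 (adjusted p = 0.0224). The responses of the lines differed by -0.32 (95% interval -0.81 to 0.18, adjusted p = 0.626), so a difference in response was not shown.

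Egfr did not pass for withdrawal on any probe set. 101840_at stood at -0.25 in wild-type cells (adjusted p = 0.114) and at -0.19 in Rb-null cells (adjusted p = 0.311), and the wild-type value passed without wild-type serum 1 (-0.29, adjusted p = 0.0392) and in the values as deposited (-0.30, adjusted p = 0.0492). 101842_g_at stood at -0.14 and 0.09 (adjusted p = 0.373 and 0.720) and 101841_at at 0.04 and -0.17 (adjusted p = 0.831 and 0.432). Tgfa stood at -0.14 (adjusted p = 0.525) and 0.23 (adjusted p = 0.396), and Ereg in Rb-null cells at 0.16 (adjusted p = 0.163). Ereg has no withdrawal value in wild-type cells, where all arrays lay at the floor, so it could not pass there. Its interaction is its Rb-null response alone. Ereg is still counted among the 8 in these comparisons. For the interaction, 0 of 8 member probe sets passed in limma, with 0.929% of all probe sets past the threshold (0.454% higher and 0.475% lower). The smallest member p was 0.0861 before adjustment, so 0 had an unadjusted p under 0.05. The withdrawal comparisons and the genotype comparisons share arrays and are given side by side only.

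The Pearson correlation of log2 values over the 9 arrays, which share line and medium, described how members varied together. Egfr 101840_at and 101842_g_at correlated at 0.92, Egfr 101840_at and Ereg at -0.89, Egfr 101840_at and Erbb3 96771_at at -0.90, and Hbegf and Erbb3 96771_at at -0.89. The Erbb3 probe sets correlated at -0.21 with each other. Among 4369 probe sets of other genes whose log2 range was at least 0.5, those most like Egfr 101840_at were Acp1 (0.99), F2r (0.99) and Nes (0.98). For Erbb3 96771_at they were Bphl (0.995), Stbd1 (0.99) and Bri3 (0.99), and for Ereg they were Gch1 (0.998), 2510039O18Rik (0.996) and Fam32a (0.99). Ereg was raised to the floor on all wild-type arrays, so its correlations, also that with Egfr, mostly restate the difference between the lines. Tgfa came closest to Tmem123 (0.98), Alg5 (0.98) and Ik (0.98), and Hbegf to Rdh11 (0.98), Ing1 (0.94) and F3 (0.94).

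Other genes of the pathway came from 8 lists with 98 symbols, of which 67 genes had a tested probe set. Averaged over the media 15 were higher (22.4%) and 23 lower (34.3%) in Rb-null cells, where 21.8% and 23.4% of all tested probe sets were. The lists count genes, each at its probe set with the highest mean, while the background counts all tested probe sets. With that limit, the share of higher genes is about that background. Which direction was the more frequent depended on the normalization, in the lists and over all probe sets alike. In the values as deposited and with a common median, higher genes outnumbered lower ones over the lists. Over all probe sets, 2731 were higher and 1210 lower as deposited, and 2517 and 1630 with a common median. In the main fit these were 2107 and 2271. Both list counts were larger without wild-type serum 1, and there lower genes remained the more frequent. Over all probe sets 2604 were higher and 3468 lower there. The list counts given below for these settings stand beside these counts. The 67 genes had a median log2 difference of -0.12 against -0.05 for all tested probe sets. In the list of the remaining receptor and ligands (Erbb4, Egf, Epgn and the neuregulins) 3 of 7 had a probe set, and those, Erbb4, Egf and Nrg3, stayed below the floor, with a highest value of 161. Epgn, Nrg1, Nrg2 and Nrg4 matched no probe set.

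**Figure D3:**
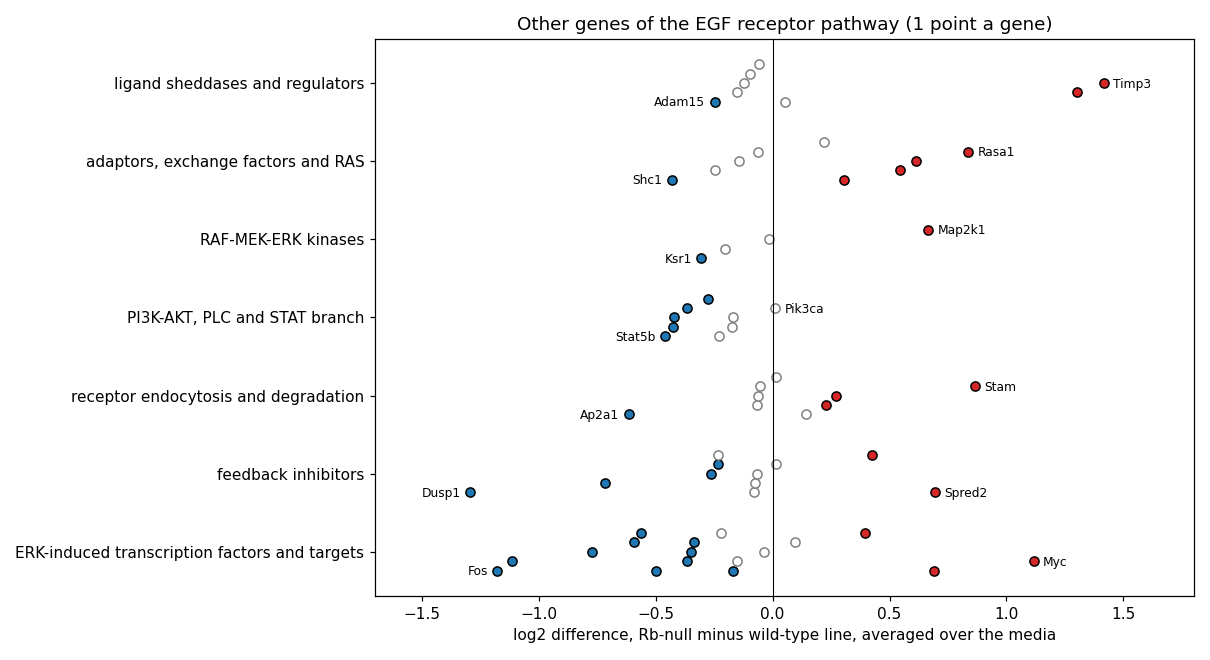
Log2 difference between the lines averaged over the media for the 67 tested pathway genes by list, 1 point a gene at its probe set with the highest mean; red is higher and blue lower in Rb-null cells with an adjusted p under 0.05, white did not pass, and the extreme genes of each list are named. The PI3K-AKT, PLC and STAT list has called genes on the lower side only.

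Of 8 tested genes that release ligands or regulate the release, 2 were higher, 1 lower and 5 did not pass (median -0.08). Timp3, an inhibitor of metalloproteases that include Adam17, read from 74.1 to 101 on the wild-type arrays, under the floor. In Rb-null cultures it reached 432 and 460 with serum, then 578 and 661 without, so all Rb-null arrays lay far above the wild-type arrays. It was at least 2.67-fold higher (adjusted p = 1.55e-07), a bound that moved from 0.65 to 2.45 on the log2 scale with the alternatives. Timp3 passed the filter through the Rb-null arrays only, and its p holds no spread of wild-type arrays. On withdrawal in Rb-null cells it rose by 0.47 (adjusted p = 0.00451). That rise was lost in a fit of the Rb-null arrays alone (adjusted p = 0.0604). Adam10, a sheddase of EGF-family ligands, stood at 1.30 (2.46-fold, adjusted p = 0.000102) on its brighter probe set, with 503 to 785 on the wild-type arrays and 1236 to 1911 on the Rb-null arrays. Its other probe set stood at 0.21 (adjusted p = 0.103). Adam15 stood at -0.25 (adjusted p = 0.00893). Adam9 fell on withdrawal in wild-type cells by 0.96 (adjusted p = 0.00201).

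Downstream of the receptors, 4 of 9 adaptor, exchange factor and RAS genes were higher and 1 lower (median 0.22). Higher were Rasa1, a GTPase activator that switches RAS off, at 0.84 (adjusted p = 3.45e-05), the adaptor Crk at 0.61 (adjusted p = 3.25e-05), and Sos2 and Gab1. The list had 5 higher and 3 lower without wild-type serum 1. Shc1, the adaptor that couples receptors to RAS, was lower at -0.43 (adjusted p = 0.000637). Its dimmer probe set stood at -0.85. Of 4 tested RAF-MEK-ERK genes, the kinase Map2k1 was higher at 0.67 (adjusted p = 0.000324) and the scaffold Ksr1 lower at -0.30 (adjusted p = 0.00670). Ksr1 did not pass in the values as deposited (adjusted p = 0.0655), and without wild-type serum 1 the list had 1 higher and 2 lower. The dimmer Ksr1 probe set overlapped between the lines, with 290 to 324 on the wild-type arrays and 262 to 324 on the Rb-null arrays.

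In the PI3K-AKT, PLC and STAT list 5 of 9 genes were lower and 0 higher (median -0.28): Pik3r2 at -0.28, Akt1 at -0.37, Stat5b at -0.46, Src at -0.42 and Akt2. That count depended on the scaling, with 2 lower and 0 higher in the values as deposited (median -0.09) and after scaling arrays to a common median (median -0.12). Lower calls over all probe sets also went from 2271 to 1210 and 1630 under these scalings. Pik3r2 (adjusted p = 0.324 and 0.163) and Akt1 (0.142 and 0.0936) did not pass under these scalings. Src did not pass with no filter on low values or without Rb-null serum-free 1 (0.0563). Leaving out wild-type serum 1 gave 8 lower, beside 3468 of all probe sets. Of 9 tested endocytosis and degradation genes, 3 were higher and 1 lower (median 0.01), with the sorting adaptor Stam at 0.87 (adjusted p = 0.000119) and the clathrin adaptor subunit Ap2a1 at -0.62 (adjusted p = 0.000623). The counts were 4 higher and 1 lower without wild-type serum 1.

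Among feedback inhibitors 2 of 11 were higher and 4 lower (median -0.08). Errfi1, which binds and inhibits the Egfr kinase, was higher at 0.43 on its brighter probe set (adjusted p = 0.000391), and its dimmer one stood at 0.93 (adjusted p = 3.32e-06). The dual-specificity phosphatase Dusp1 was lower at -1.29 and Socs2 lower at -0.72 (adjusted p = 0.000404). With the values as deposited or scaled to a common median, 2 rather than 4 were lower, and without wild-type serum 1, 5 were lower. Lower calls over all probe sets moved the same way, from 2271 to 1210, 1630 and 3468 in that order. On withdrawal, Errfi1 fell in Rb-null cells by 0.30 (adjusted p = 0.0407), and its dimmer probe set fell by 0.58 (adjusted p = 0.00190). The call of the brighter one was lost under 10 alternatives, among them the replicate block and each Rb-null array left out.

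Of 17 tested transcription factors and targets linked to ERK signalling, 3 were higher (Myc at 1.12, Fosl1 at 0.69 and Klf6 at 0.39) and 10 lower (median -0.34). The lower ones included Ccnd1, Fos, Ier3 (-0.50), Junb and Egr1 (-0.59). In the values as deposited and with a common median, 7 rather than 10 were lower, beside 1210 and 1630 rather than 2271 of all probe sets. Leaving out wild-type serum 1 gave 4 higher and 12 lower, beside 2604 and 3468 of all probe sets. On withdrawal 5 of 17 rose and 1 fell in wild-type cells (6.61% and 9.26% of all probe sets), and 1 rose and 1 fell in Rb-null cells (7.5% and 6.42% of all). Under either of those scalings the wild-type count was 2 higher and 1 lower, and the Rb-null count 1 higher and 2 lower. Without wild-type serum 1 the counts were 3 and 1 in wild-type cells and 2 and 5 in Rb-null cells. Egr1 rose in each line, from 783 to 869 in serum to 1980 and 2405 without it in wild-type cells (log2 1.40, adjusted p = 3.84e-05), and from 624 and 672 to 1142 and 1313 in Rb-null cells (0.92, adjusted p = 0.00101). Myc fell in wild-type cells by 0.78 (adjusted p = 0.0248), which did not pass when either wild-type serum-free array was left out, with no filter on low values, or in a fit of the wild-type arrays alone.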

How the data were processed

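Single-channel arrays of 9 RNA samples were deposited as linear intensity, with 1 number for each probe set. The authors' software, summary method and scaling were not given in the sources used here. Array medians spanned 0.09 and upper quartiles 0.22 on the log2 scale, and since a spread over 0.1 called for it, values were quantile normalized, raised to a floor of 197 (percentile 25), and taken to log2. No detection calls came with the values. Gene symbols came from the platform annotation, updated by gene identifier from a RefSeq gene table of GRCm38.p6 (10833 probe sets with 1 symbol, 396 with several genes, 1193 unnamed). The fit used limma 3.58.1 in R 4.3.3, with 4 group means, an intensity trend, 5 residual and 4.20 prior degrees of freedom, two-sided tests and Benjamini-Hochberg adjustment over 9686 probe sets. The procedure was also run on simulated data with far fewer changed probe sets than were called here. That run does not show how it performs on these data. Each pathway gene is represented by its tested probe set with the highest mean. The plan was to name up to 2 genes a direction with the smallest adjusted p per list and comparison. Some further called genes, such as Sos2, Gab1, Akt2 and Junb, are named beyond that. The members, lists and tests were chosen with earlier results of these data known. Alternatives changed the normalization, floor, filter, variance model and arrays, and left out each array.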

Additional observations from a re-analysis of the deposited data

Results flagged for a closer look

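The withdrawal response differed between the lines, by the test of that difference, for 2 pathway genes and for 0 member probe sets (0 with an unadjusted p under 0.05, limma). Both genes had values below 0, which is 3.0% of the 67 tested, beside 0.475% of all probe sets. That count was 1 in the values as deposited, 1 with a common median and 3 without wild-type serum 1. Fos, an immediate-early transcription factor, rose in wild-type cells from 252 to 319 in serum to 820 and 1130 without serum, whereas Rb-null cells gave 168 and 199 in serum, then 260 and 268 after withdrawal. The lower Rb-null serum value lies under the floor of 197 and was raised to it. The Fos response was smaller in Rb-null cells by a log2 difference of -1.37 (limma interaction, adjusted p = 0.0203), a value that ran from -1.62 to -1.15 over the alternatives and lost its call under 7 of 17. Ccnd1, which encodes cyclin D1, read 7150 to 7781 in wild-type serum, 7213 and 7335 in wild-type serum-free, 5075 and 5174 in Rb-null serum and 3673 and 3655 in Rb-null serum-free cultures. Its interaction was -0.43 (adjusted p = 0.0396) and lost its call under 14 of 17 alternatives, and its other probe set gave 0.18 (adjusted p = 0.751). Groups of 2 and 3 arrays were too small to test single arrays as outliers.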

How the results depend on the processing

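Over 848 combinations of a member probe set, comparison and alternative, 809 kept their side of the threshold, 24 lost it, 15 passed newly and 0 called values changed sign. The combinations include Ereg withdrawal in wild-type cells, where the floor fixed the main value. The Egfr 101842_g_at, Erbb3 96771_at and Ereg genotype calls and the Erbb3 96771_at withdrawal calls were kept under all alternatives run. With single arrays left out, 3 to 8 member probe sets were called between the lines without serum, 1 to 2 on withdrawal in wild-type cells and 1 to 2 in Rb-null cells. The count for wild-type withdrawal was 2 in the values as deposited, and the count for Rb-null withdrawal was 1 with no filter. Over all probe sets, the counts with single arrays left out ran from 877 to 4376 (2287 with all arrays) between the lines in serum, 1159 to 4981 (2971) without serum, 667 to 1963 (1537) and 497 to 2280 (1348) for withdrawal in wild-type and Rb-null cells, and 11 to 255 (90) for the interaction. The highest of these counts came without wild-type serum 1. A fit of only the compared arrays gave 1504 in serum and 768 for wild-type withdrawal, and the interaction count was 57 with the floor at percentile 10 and 57 with no intensity trend. The share of higher probe sets among the called moved from 48.1% to 69.3% in the values as deposited and 60.7% with a common median for the averaged difference, from 55.9% to 73.4% and 68.0% in serum, from 54.8% to 77.6% and 68.1% without serum, and from 41.6% to 25.7% as deposited for wild-type withdrawal.

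With the replicate number as a block, 2 member probe sets were called for withdrawal in wild-type cells, Hbegf newly at -0.53 (adjusted p = 0.0200), and Hbegf passed in serum between the lines at -0.44 (adjusted p = 0.0387). The interaction count over all probe sets was 51. Same-numbered arrays of different groups had correlations of their deviations between -0.23 and 0.33. In a group of 2 arrays the deviations mirror each other, so these values do not settle whether arrays were paired. The block changed no other member call. Replicate number 3 occurs in wild-type serum only, so the block sets that array apart. Its Hbegf values of -0.53 and -0.44 repeat those of the fit without wild-type serum 3. The number of arrays and the floor, which stands in for detection calls, limit the precision.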

Other observations

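Ereg lies in a cluster of EGF-family ligand genes on mouse chromosome 5, between Epgn and Areg, with Btc after Areg and chemokine genes on its other side in the RefSeq gene order. The neighbourhood was chosen after the values were seen, as the 10 protein-coding genes on each side of Ereg, of which 9 had a probe set and 8 a tested one. The chemokine Cxcl1 read 112 to 123 on the wild-type arrays, all under the floor of 197, and 676 to 1147 on the Rb-null arrays. Averaged over the media its Rb-null level was at least 4.52-fold above the wild-type level (adjusted p = 1.47e-08), and its other probe set, above the floor on all arrays, stood at 0.50 (adjusted p = 0.000345). Cxcl5 read 92.1 to 128 in wild-type serum, under the floor, and was at least 2.24-fold higher in Rb-null serum cultures (adjusted p = 1.29e-05). Without serum, where all arrays lay above the floor, it stood at 0.47 (adjusted p = 0.00420). Cxcl2 read 128 to 140 on the Rb-null arrays, under the floor, and was at least 1.38-fold lower there (adjusted p = 0.00287). Groups raised to the floor have no spread, so the p-values of these bounds hold none from the group under the floor. Parm1 stood at -0.38 (adjusted p = 0.000365), Pf4 at -0.18 (adjusted p = 0.128) and Cdkl2 at -0.08 (adjusted p = 0.285). Higher in Rb-null cells, Uso1 stood at 0.32 (adjusted p = 0.00240) and the G3bp2 probe sets at 0.33 (adjusted p = 0.0378) and, not past the threshold, 0.18 (adjusted p = 0.0535).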
